A study of Mus musculus with 28 samples.

Results

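Base excision repair and the direct reversal of alkylated bases were examined through 10 genes, Mpg, Ung, Mgmt, Apex1, Parp1, Xrcc1, Polb, Lig1, Fen1 and Pcna. All of their probe sets in the array annotation were taken, with no filter on brightness, which gave 13 probe sets of 12422 and 10 genes of 8251 with a symbol of their own. Xrcc1, Lig1 and Ung each had 2 probe sets, and the other 7 genes had 1. Of the 13 probe sets 4 were too dim to judge, and these were the single probe sets of Mpg, Mgmt, Polb and Fen1. A probe set was so described where it lay above the median of its array in fewer than 2 of the 28 arrays.

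The study compared livers of Aag null mice, which lack the glycosylase encoded by Mpg, with livers of WT mice after methyl methanesulfonate (MMS), a chemical that adds methyl groups to DNA bases. The Aag null mice gave 4 untreated arrays and 3, 2, 4 and 3 arrays at 6, 12, 24 and 48 h after MMS. The WT mice gave 3 untreated arrays and 2, 3, 2 and 2 arrays at the same times. The labels give neither the dose nor the strain, age or sex of the mice, nor a vehicle control, and the design of the null allele is not given in them either. They do not say that replicates came from separate mice, so the p-values measure the spread between these samples, which may be technical. Total liver RNA was hybridized to Affymetrix MG-U74Av2 arrays, so that a change in the make-up of the liver's cells and a change of RNA per cell cannot be told apart. In the text "Aag" stands for the null genotype, and a level or a difference is a quantile-normalized log2 signal unless another unit is named.

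In base excision repair a glycosylase cuts a damaged base off its sugar and leaves a site without a base. Mpg (also called Aag) does this for alkylated purines such as those MMS makes, and Ung for uracil. The endonuclease Apex1 then nicks the strand at the empty site, Parp1 binds the nick and makes poly(ADP-ribose), and Xrcc1 is the scaffold that brings in the repair enzymes. Polb removes the remaining sugar phosphate and fills the gap. In a longer version of the pathway the sliding clamp Pcna holds the polymerase, Fen1 cuts away the displaced flap and Lig1 seals the strand. Mgmt works apart from this pathway and takes the methyl group from the oxygen of guanine onto itself.

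The stretch just upstream of the start of 9 of the 10 genes was found in RefSeq (GRCm38.p6). It is shown for Mpg, the gene inactivated in the null mice, and for Ung, Parp1 and Xrcc1, the genes with a probe set that fell in WT liver at several times after MMS. Each run is the 250 bases before the gene's start, on the forward strand, and capitals mark a GC box (GGGCGG, or CCGCCC on the other strand) or a CCAAT box (CCAAT, or ATTGG on the other strand).
Mpg, chr11:32226255-32226504: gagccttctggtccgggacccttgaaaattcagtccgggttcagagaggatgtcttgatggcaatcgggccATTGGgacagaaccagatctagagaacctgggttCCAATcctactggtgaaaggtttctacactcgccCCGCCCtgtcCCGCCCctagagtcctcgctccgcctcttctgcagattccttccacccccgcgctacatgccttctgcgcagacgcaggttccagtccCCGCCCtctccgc
Ung, chr5:114130185-114130434: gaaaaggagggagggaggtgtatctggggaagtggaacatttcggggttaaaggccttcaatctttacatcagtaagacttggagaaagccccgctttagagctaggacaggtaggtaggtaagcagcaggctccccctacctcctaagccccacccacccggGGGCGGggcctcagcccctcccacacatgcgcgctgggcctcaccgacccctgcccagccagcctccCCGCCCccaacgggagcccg
Parp1, chr1:180568641-180568890: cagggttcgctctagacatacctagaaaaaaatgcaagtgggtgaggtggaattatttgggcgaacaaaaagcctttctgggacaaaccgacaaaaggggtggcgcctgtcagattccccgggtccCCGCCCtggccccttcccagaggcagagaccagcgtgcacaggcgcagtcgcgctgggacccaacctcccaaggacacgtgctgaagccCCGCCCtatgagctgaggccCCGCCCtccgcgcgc
Xrcc1, chr7:24546449-24546698: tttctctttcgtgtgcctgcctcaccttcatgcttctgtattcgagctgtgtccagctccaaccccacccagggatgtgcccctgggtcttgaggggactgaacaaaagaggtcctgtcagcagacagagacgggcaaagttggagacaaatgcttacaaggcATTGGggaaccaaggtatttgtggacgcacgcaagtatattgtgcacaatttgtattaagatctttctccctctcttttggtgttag
The 9 genes had 13 windows in the table, some genes more than 1. A GC box stood in 7 of the 13 windows (53.8%), those of Mpg, Mgmt, Apex1, Parp1, Lig1, Ung and Pcna, and in 32.7% of all 32851 windows of the table. A CCAAT box stood in 4 of the 13 windows (30.8%), in Mpg, Apex1, Xrcc1 and Pcna, and in 33.8% of all windows. E2F sites written as TTTCGCGC or TTTGGCGC and the cyclic AMP response element TGACGTCA stood in none of the members' 13 windows, and in 0.256%, 0.417% and 1.55% of all windows. A match of letters describes the window and shows no binding.

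The arrays differed in ways the groups do not explain. On 5 arrays, the 3 untreated WT arrays and untreated Aag replicates 3 and 4, the 9 hybridization control probe sets averaged 10.2 to 11.6, and on the other 23 arrays they averaged 6.42 to 9.22. These 5 arrays are called the higher array set. The distance between the 3′ and 5′ probe sets of Gapdh was 0.63 to 0.92 on the higher set and -0.37 to 0.21 on the other arrays. Every untreated WT array was in the higher set and every treated array outside it, so within WT liver the array set and the treatment cannot be told apart. Untreated Aag replicate 3 and Aag 24 h replicates 1 and 2 had Cyp2b9, a transcript higher in female mouse liver, at 7.73 to 8.22, against 2.49 to 4.21 on the other 25 arrays. The hepatocyte markers Alb, Ttr, Apoa1, Tat, Cps1 and Ass1 averaged 9.81 to 10.2 on every array, so hepatocyte RNA was measured on each of them. Single markers of this list were called, with Ttr at -1.03, -0.86, -0.65 and -0.39 in WT liver at 6, 12, 24 and 48 h (limma adjusted p at most 0.0267), and Tat at 1.47 and 1.09 in Aag liver at 12 and 24 h (limma adjusted p = 0.0312 and 0.0384).

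The members' levels set the limits of what could be seen. Over the 28 arrays the mean array median was 4.10. The probe sets above it were Ung 162227_r_at with a mean level of 6.68, Pcna at 5.21, Xrcc1 161560_f_at at 5.21 and 99938_at at 5.14, Lig1 92551_at at 5.07, Ung 102792_at at 4.90, Apex1 at 4.58 and Parp1 at 4.41. Lig1 162004_i_at, with a mean of 4.00, lay above the median of its array on 12 of the 28 arrays. The dim probe sets averaged 3.50 for Mgmt, 3.01 for Polb, 2.51 for Mpg and 2.27 for Fen1. For comparison, 18 probe sets of genes of other tissues, such as insulin and heart myosin, had mean levels of 1.59 to 5.88 with a median of 2.77. Of all probe sets on the array 41.5% were as dim by the same rule.

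**Figure D1:**
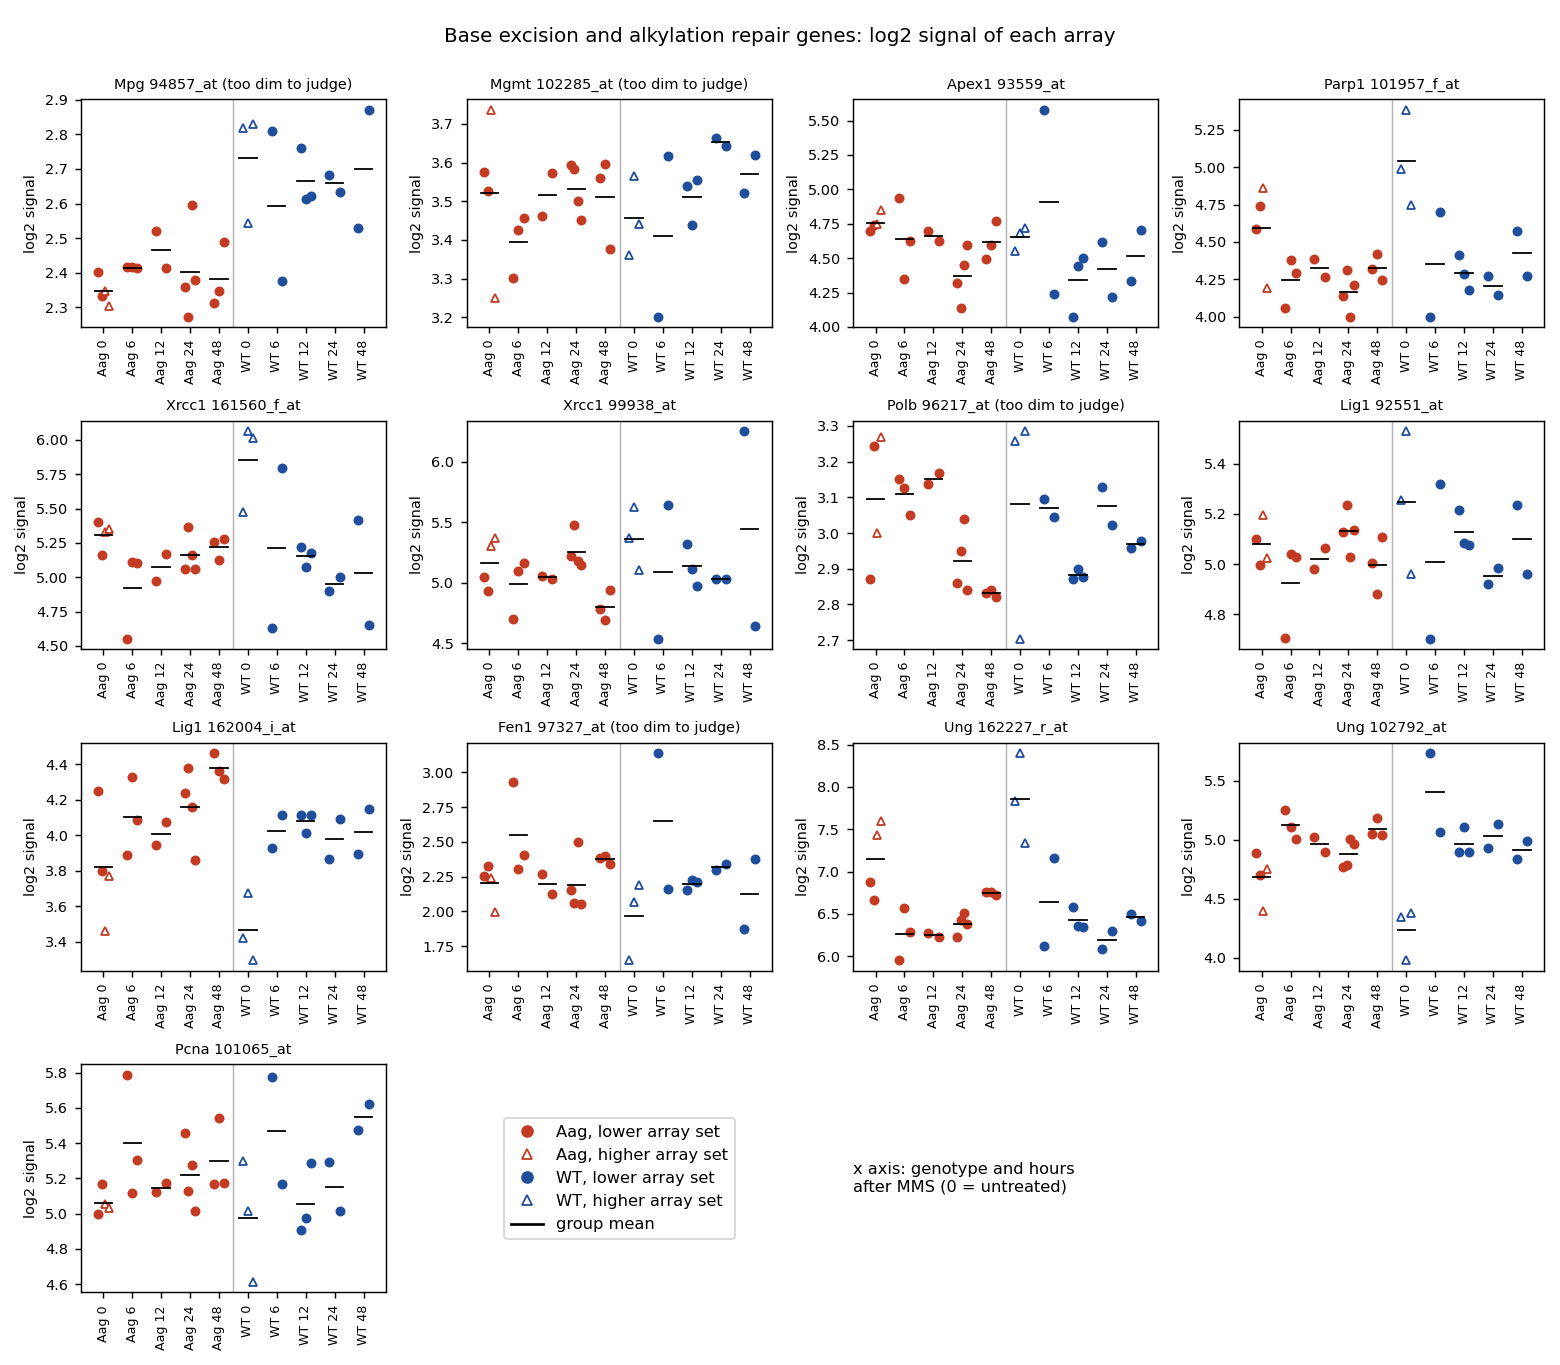
Quantile-normalized log2 signal of each of the 13 probe sets on each of the 28 arrays, by genotype and by time after MMS, with horizontal bars at group means and open triangles for the higher array set; the vertical range differs between panels. Ung 162227_r_at was highest and Ung 102792_at lowest in the untreated WT arrays, and the Mpg, Mgmt, Polb and Fen1 panels lie below the array median of 4.10.

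Mpg is the gene that the null allele inactivates, so its probe set was read first as a check of the labels. Mpg 94857_at gave 2.40, 2.33, 2.35 and 2.30 in untreated Aag liver, against 2.82, 2.54 and 2.83 in untreated WT liver, and these arrays did not overlap. The difference, untreated Aag minus untreated WT liver, was -0.38 (SE 0.11, limma adjusted p = 0.026). At 6 h all 3 Aag arrays gave 2.41, against 2.81 and 2.38 in WT liver, and here the genotypes overlapped. At 12 h Aag liver gave 2.52 and 2.41, against 2.76, 2.61 and 2.62 in WT liver. At 24 h the Aag values were 2.36, 2.27, 2.60 and 2.38, against 2.68 and 2.63 in WT liver. At 48 h Aag liver gave 2.31, 2.35 and 2.49, against 2.53 and 2.87 in WT liver. The genotypes did not overlap at 12, 24 or 48 h, on a probe set too dim to judge, and no direction is drawn from this. The share of all probe sets without overlap in these groups is not given here.

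Over all times Mpg ranged from 2.27 to 2.60 on the 16 Aag arrays, with a median of 2.39, and from 2.38 to 2.87 on the 12 WT arrays, with a median of 2.66. Averaged over the 4 times after MMS, Aag minus WT was -0.24 for Mpg (SE 0.06, unadjusted p = 0.000999, 95% interval -0.37 to -0.11). Its adjusted p over all probe sets was 0.564, so the difference among treated arrays did not pass the test. WT liver, which carries the intact gene, was itself below the array median on each of its arrays. The sources used here do not say which part of the gene the null allele changes, nor whether the Mpg probes lie in it. This call in untreated liver was lost when untreated WT replicate 1 or 3 or untreated Aag replicate 2 was left out, with adjusted p up to 0.0814.

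Ung, the uracil glycosylase, gave opposite answers from its 2 probe sets. Ung 162227_r_at had levels of 6.88, 6.66, 7.43 and 7.60 in untreated Aag liver, 5.95, 6.57 and 6.28 at 6 h, 6.27 and 6.23 at 12 h, 6.22, 6.42, 6.51 and 6.38 at 24 h, and 6.76, 6.76 and 6.73 at 48 h. The WT arrays had 7.84, 8.40 and 7.34 before treatment, 6.12 and 7.16 at 6 h, 6.58, 6.36 and 6.34 at 12 h, 6.09 and 6.29 at 24 h, and 6.50 and 6.42 at 48 h. Every treated WT array was below every untreated WT array. In Aag liver the treated arrays overlapped the untreated ones at 48 h only, and the highest untreated values were the 2 from the higher array set.

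Ung 102792_at ran the other way. It had 4.89, 4.71, 4.40 and 4.75 in untreated Aag liver, 5.26, 5.11 and 5.01 at 6 h, 5.03 and 4.90 at 12 h, 4.77, 4.79, 5.00 and 4.96 at 24 h, and 5.05, 5.19 and 5.04 at 48 h. The WT values were 4.35, 3.98 and 4.38 before treatment, 5.73 and 5.07 at 6 h, 4.90, 5.10 and 4.90 at 12 h, 4.93 and 5.13 at 24 h, and 4.84 and 4.99 at 48 h. Here every treated WT array was above every untreated WT array. Over the 28 arrays the levels of the 2 Ung probe sets had r = -0.76 with each other, as a description of arrays that share their treatment groups and array sets.

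In WT liver Ung 162227_r_at fell at each time after MMS, with differences of -1.22 at 6 h (SE 0.28, limma adjusted p = 0.00511), -1.43 at 12 h (SE 0.25, adjusted p = 0.000341), -1.67 at 24 h (SE 0.28, adjusted p = 0.000399) and -1.40 at 48 h (SE 0.28, adjusted p = 0.0016). The fall at 24 h is 3.18-fold. Ung 102792_at rose by 1.16 at 6 h (SE 0.17, adjusted p = 0.000129), 0.73 at 12 h (SE 0.15, adjusted p = 0.00159), 0.79 at 24 h (SE 0.17, adjusted p = 0.00297) and 0.68 at 48 h (SE 0.17, adjusted p = 0.00815). The rise at 6 h is 2.24-fold. No single direction can be given for Ung RNA from these arrays.

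Left-out arrays ended 3 of these 8 calls. Without WT 6 h replicate 1 the 6 h difference of Ung 162227_r_at was -0.70 with an adjusted p of 0.119. For Ung 102792_at the call at 24 h was lost without WT 24 h replicate 2, with an adjusted p of 0.0695, and the call at 48 h without WT 48 h replicate 2, with an adjusted p of 0.0847. The 4 comparisons of WT liver share the same 3 untreated arrays, so that their directions are not independent of each other.

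The letter in a probe set's name records how its probes were chosen on this array. An r marks probes picked with some selection rules dropped, an f marks probes shared within a family of sequences and an i marks a set with fewer probes than usual. At 12 h in WT liver 34% of the 901 probe sets with an r were called lower and 5.77% higher, against 8.78% lower and 10.7% higher among the 9614 with no such letter. Of the 1075 with an f, 15.3% were called lower and 9.4% higher. Sets with an r were also called lower in 22.2% of cases in untreated Aag against untreated WT liver, where no mouse had received MMS. Once the fit held a term for the array set, the share of r sets called lower at 12 h was 4.77%, against 1.04% of sets with no letter.

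**Figure D2:**
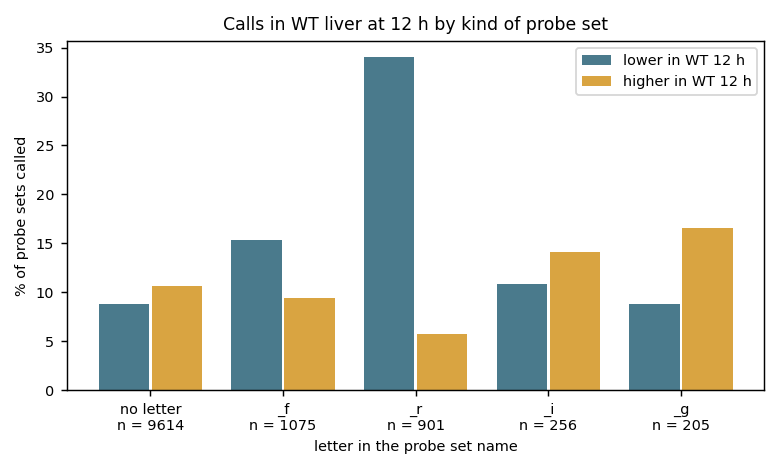
Share of probe sets called lower (left bar) and higher (right bar) in WT liver at 12 h after MMS against untreated WT liver, in percent, by the letter in the probe set's name, with the number of probe sets under each pair. Sets with an r, such as Ung 162227_r_at, were called lower in 34% of cases, against 8.78% of sets with no letter.

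The probe sets whose levels over the 28 arrays were most like those of Ung 162227_r_at were Adam28 101723_r_at (r = 0.985), A4galt 161085_r_at (r = 0.981) and Pla2g4f 161108_r_at (r = 0.973), out of 6468 compared. All 3 carry the letter r. Genes with opposite calls on different probe sets were common in these comparisons. Among genes with at least 2 called probe sets, 33.3%, 36%, 34.4% and 32.6% were called in both directions in WT liver at 6, 12, 24 and 48 h. The part of the probes in the Ung difference was not tested further, since probe sequences were not used here.

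Mgmt, which repairs alkylated guanine without cutting the strand, was too dim to judge. Its level ranged from 3.25 to 3.74 over the 16 Aag arrays and from 3.20 to 3.66 over the 12 WT arrays. No comparison called it, and no direction is drawn from its values.

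Apex1, the endonuclease that cuts at the empty site, was bright enough and was called in no comparison. Its mean level was 4.76 ± 0.07 in untreated Aag liver (SD, n = 4), 4.64 ± 0.29 at 6 h (n = 3), 4.66 ± 0.05 at 12 h (n = 2), 4.37 ± 0.19 at 24 h (n = 4) and 4.62 ± 0.14 at 48 h (n = 3). For WT liver the means were 4.65 ± 0.09 before treatment (n = 3), 4.91 ± 0.95 at 6 h (n = 2), 4.34 ± 0.23 at 12 h (n = 3), 4.42 ± 0.28 at 24 h (n = 2) and 4.52 ± 0.26 at 48 h (n = 2). The wide spread at 6 h came from values of 5.58 and 4.24. At 24 h in Aag liver its 4 arrays lay below the 4 untreated ones, with a difference of -0.39 (SE 0.19, adjusted p = 0.398), which did not pass the test.

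Parp1, the nick sensor, was lower in treated WT liver. Parp1 101957_f_at had 4.59, 4.74, 4.86 and 4.19 in untreated Aag liver, 4.06, 4.38 and 4.29 at 6 h, 4.38 and 4.26 at 12 h, 4.14, 4.31, 4.00 and 4.21 at 24 h, and 4.32, 4.42 and 4.24 at 48 h. WT liver gave 4.99, 5.39 and 4.75 before treatment, 4.00 and 4.70 at 6 h, 4.41, 4.29 and 4.18 at 12 h, 4.27 and 4.14 at 24 h, and 4.58 and 4.27 at 48 h. Every treated WT array was below every untreated WT array. In Aag liver the treated arrays overlapped the untreated ones at each time.

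The Parp1 differences in WT liver were -0.69 at 6 h (SE 0.20, limma adjusted p = 0.0211), -0.75 at 12 h (SE 0.18, adjusted p = 0.00476), -0.83 at 24 h (SE 0.20, adjusted p = 0.00709) and -0.62 at 48 h (SE 0.20, adjusted p = 0.0365). These falls are 1.61-fold, 1.68-fold, 1.78-fold and 1.53-fold. The 6 h call was lost without untreated WT replicate 2 or WT 6 h replicate 1 (adjusted p up to 0.306). The 24 h call was lost without WT 24 h replicate 2 (adjusted p = 0.0944), and the 48 h call without any of 4 arrays, which were untreated WT replicates 1 and 2 and both WT 48 h arrays (adjusted p up to 0.273). The 12 h call held with each of the 28 arrays left out in turn. Its probe set carries the letter f, so some of its probes match other sequences of a family.

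Xrcc1, the scaffold, was lower in treated WT liver by one probe set and not by the other. Xrcc1 161560_f_at had 5.40, 5.16, 5.33 and 5.35 in untreated Aag liver, 4.55, 5.11 and 5.11 at 6 h, 4.98 and 5.17 at 12 h, 5.06, 5.36, 5.16 and 5.06 at 24 h, and 5.25, 5.12 and 5.28 at 48 h. The values in WT liver were 5.48, 6.06 and 6.01 before treatment, 4.63 and 5.80 at 6 h, 5.22, 5.08 and 5.18 at 12 h, 4.90 and 5.00 at 24 h, and 5.42 and 4.65 at 48 h. The treated WT arrays lay below the untreated ones at 12, 24 and 48 h and overlapped them at 6 h.

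In WT liver Xrcc1 161560_f_at fell at 3 of the 4 times, with differences of -0.69 at 12 h (SE 0.22, limma adjusted p = 0.0291), -0.90 at 24 h (SE 0.25, adjusted p = 0.0169) and -0.82 at 48 h (SE 0.25, adjusted p = 0.0266). Each of these calls was lost in several of the fits that leave out an array. Over those fits the difference stayed at -0.88 to -0.59 at 12 h and at -1.09 to -0.80 at 24 h. The 12 h call was lost without untreated WT replicate 2 or 3 or any WT 12 h array (adjusted p up to 0.0991), and the 24 h call without untreated WT replicate 2 or either WT 24 h array (adjusted p up to 0.126). The 48 h call was lost without untreated WT replicate 2 or 3 or WT 48 h replicate 2, with a smallest difference of -0.43 (adjusted p up to 0.396).

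Xrcc1 99938_at, with no letter and a like mean level, was called in no comparison. It had 5.05, 4.93, 5.31 and 5.37 in untreated Aag liver and 4.69 to 5.48 on the 12 treated Aag arrays. WT arrays gave 5.37, 5.63 and 5.11 before treatment and 4.54 and 5.64 at 6 h. They gave 5.32, 5.12 and 4.97 at 12 h, 5.03 and 5.03 at 24 h, and 6.25 and 4.64 at 48 h. The 2 arrays of WT liver at 48 h were the highest and the second lowest of all WT values. Over the 28 arrays the levels of the 2 Xrcc1 probe sets had r = 0.62.

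Polb, the gap-filling polymerase, was too dim to judge. Its level lay between 2.82 and 3.27 on the Aag arrays and between 2.70 and 3.28 on the WT arrays, and no comparison called it.

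Lig1, the ligase of the longer pathway, also differed between its probe sets. Lig1 162004_i_at had 4.25, 3.80, 3.46 and 3.77 in untreated Aag liver, 3.89, 4.33 and 4.09 at 6 h, 3.94 and 4.08 at 12 h, 4.24, 4.38, 4.16 and 3.86 at 24 h, and 4.46, 4.36 and 4.32 at 48 h. Levels in WT liver were 3.42, 3.67 and 3.29 before treatment, 3.93 and 4.11 at 6 h, 4.11, 4.01 and 4.11 at 12 h, 3.87 and 4.09 at 24 h, and 3.89 and 4.15 at 48 h. Every treated WT array was above every untreated one, and the treated WT values were close to the array median of 4.10. The untreated WT values all lay below that median, within the range of the dim Mgmt (3.20 to 3.74). The probe set thus met the brightness rule through other arrays, and the size of its rise starts from a dim level. The rise in WT liver was 0.56 at 6 h (SE 0.18, limma adjusted p = 0.0382), 0.62 at 12 h (SE 0.16, adjusted p = 0.00941) and 0.56 at 48 h (SE 0.18, adjusted p = 0.0374).

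The 6 h and 48 h calls of Lig1 162004_i_at were each lost without untreated WT replicate 1 or 3 or either treated array (adjusted p up to 0.147 at 6 h and 0.264 at 48 h). The brighter probe set, Lig1 92551_at, was called nowhere. It had a mean of 5.08 ± 0.09 in untreated Aag liver (SD, n = 4) and 4.92 to 5.13 as group means after MMS, and a mean of 5.25 ± 0.28 in untreated WT liver (SD, n = 3) and 4.95 to 5.13 as group means after MMS. The 2 Lig1 probe sets had r = -0.12 with each other over the 28 arrays.

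Fen1, the flap endonuclease, was too dim to judge, and 1 of its comparisons was nevertheless called. Fen1 97327_at had 3.14 and 2.16 in WT liver at 6 h, against 1.65, 2.07 and 2.19 in untreated WT liver, with a difference of 0.68 (SE 0.22, limma adjusted p = 0.0353). The 2 WT 6 h arrays lay far apart, and the second was within the untreated range. Without WT 6 h replicate 1 the difference was 0.20 with an adjusted p of 0.575, and the call was also lost without untreated WT replicate 1. No direction is drawn from it.

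Pcna, the sliding clamp and a gene that rises in dividing cells, was bright enough and was called in no comparison. Pcna 101065_at had 5.00, 5.17, 5.05 and 5.03 in untreated Aag liver, 5.79, 5.12 and 5.30 at 6 h, and 5.17, 5.54 and 5.17 at 48 h. WT liver had 5.30, 5.01 and 4.61 before treatment, 5.77 and 5.17 at 6 h, and 5.47 and 5.62 at 48 h. The WT arrays at 48 h lay above the untreated ones by 0.57 (SE 0.21, adjusted p = 0.0604) and did not pass the test. The single highest values in both genotypes were those of the first 6 h arrays.

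Aag 6 h replicate 1 and WT 6 h replicate 1 resembled each other more than the other arrays of their groups. Over all probe sets their signals had r = 0.992 with each other, and WT 6 h replicate 1 had r = 0.929 with WT 6 h replicate 2. Their hybridization controls averaged 6.59 on the Aag array and 6.42 on the WT array, and no other array was below 7.19. Both lay outside the range of the other 19 treated arrays for 7 of the 13 member probe sets, and for 33% of all probe sets. They were both above it for Apex1, Fen1, Ung 102792_at and Pcna, and both below it for Mgmt, Xrcc1 161560_f_at and Lig1 92551_at. The 6 h group of each genotype thus includes 1 array of this pair. Without the pair WT liver at 6 h is left with 1 array, so calls can be lost through lower precision alone. How far the 6 h results above rest on the pair was therefore not tested.

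**Figure D3:**
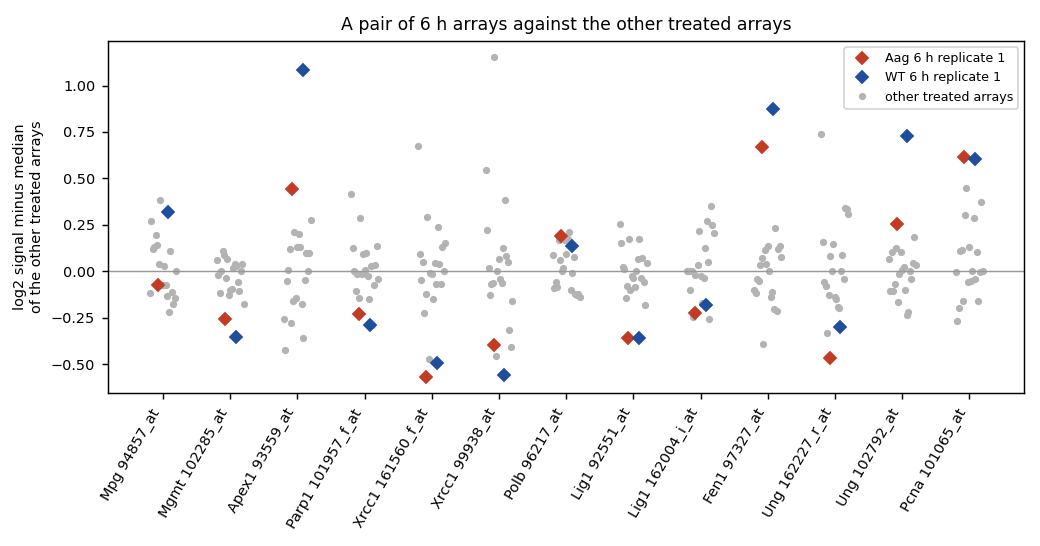
Log2 signal of Aag 6 h replicate 1 and WT 6 h replicate 1 (diamonds) and of the other 19 treated arrays (grey points), minus the median of those 19, for each of the 13 probe sets. Both arrays lie above the range for Apex1, Fen1, Ung 102792_at and Pcna and below it for Mgmt, Xrcc1 161560_f_at and Lig1 92551_at.

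Counted over the members, 5 of 13 probe sets were called in WT liver at 6 h, 3 higher and 2 lower, where 16.8% of all 12422 probe sets were called, 7.42% higher and 9.42% lower. At 12 h 5 members were called, 2 higher and 3 lower, beside 21.7% of all probe sets, 10.6% higher and 11.2% lower. At 24 h 4 were called, 1 higher and 3 lower, beside 15.1% of all, 6.44% higher and 8.67% lower. At 48 h 5 were called, 2 higher and 3 lower, beside 17.6% of all, 7.72% higher and 9.92% lower. The median difference of the 13 was -0.05, -0.12, -0.07 and -0.03 at 6, 12, 24 and 48 h, beside 0.01, 0.03, 0.02 and 0.02 over all probe sets. The calls came from 4 genes, or 5 with the dim Fen1 at 6 h, and Ung alone gave 2 of them at each time, in opposite directions.

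None of these calls held once the array set was a term of the fit, in which the 2 and 2 untreated Aag arrays estimate the step between the sets. Of the 19 WT calls 0 passed with the term and none changed its sign. For Parp1 the differences with the term were -0.83, -0.88, -0.97 and -0.75 at 6, 12, 24 and 48 h, with SE 0.29 to 0.30 and adjusted p of 0.0884 to 0.179. For Xrcc1 161560_f_at they were -0.64, -0.84 and -0.76 at 12, 24 and 48 h (SE 0.36 to 0.38). For Ung 162227_r_at they shrank to -0.47, -0.68, -0.92 and -0.65, and for Lig1 162004_i_at to 0.15, 0.21 and 0.15 at 6, 12 and 48 h. For Ung 102792_at they shrank to 0.94, 0.51, 0.57 and 0.46 at the 4 times (SE 0.23 to 0.25), with adjusted p of 0.0553 at 6 h and 0.234 to 0.331 at the later times. With the term 1.49%, 2.5%, 2.62% and 2.99% of all probe sets were called at the 4 times.

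**Figure D4:**
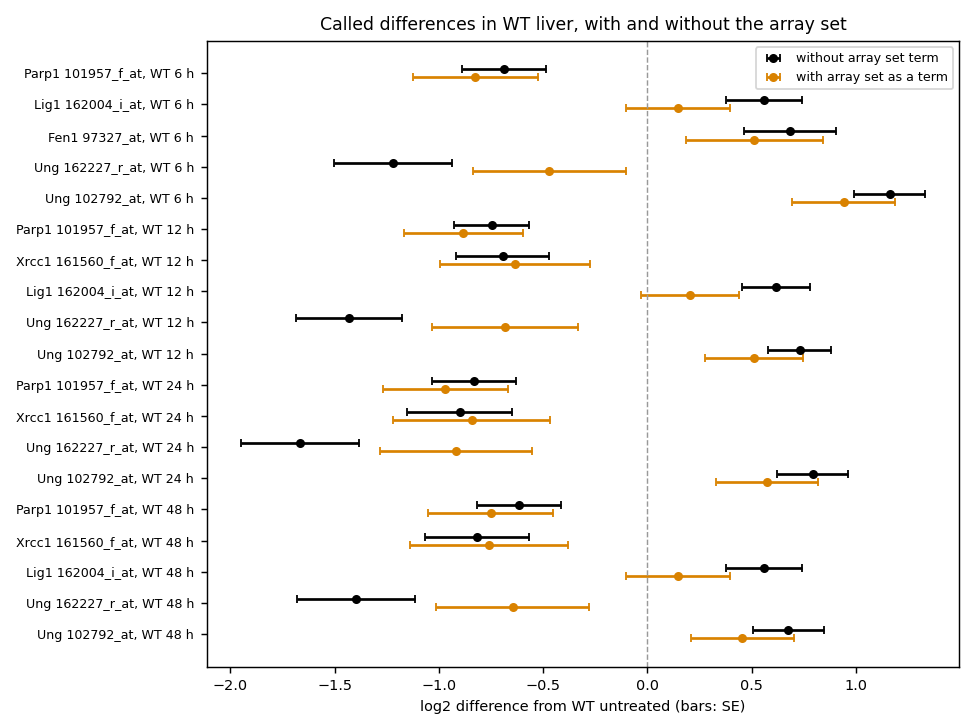
Log2 difference from untreated WT liver for the 19 called member values, without (black) and with (orange) the array set as a term of the fit; bars are standard errors. The Parp1 differences lie further from 0 with the term, those of both Ung probe sets and of Lig1 162004_i_at shrink, and the standard errors widen.

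Untreated Aag arrays show the step between the sets directly, because 2 of them were in each set. The 2 in the higher set had a mean Ung 162227_r_at level of 7.52, and the other 2 had 6.77. For Lig1 162004_i_at the means were 3.61 in the higher set and 4.03 outside it, and for Xrcc1 99938_at 5.34 and 4.99. For Ung 102792_at they were 4.58 in the higher set and 4.80 outside it. For Parp1 the means were 4.52 and 4.66, but its 2 arrays in the higher set had 4.86 and 4.19, on either side of the 4.59 and 4.74 outside it. The sign of the Parp1 step, and with it the size of the Parp1 differences with the term, therefore rests on untreated Aag replicate 4. With 2 arrays on each side these are values with no test.

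Some markers of other liver cells were called in WT liver, where 16.8%, 21.7%, 15.1% and 17.6% of all probe sets were called at 6, 12, 24 and 48 h. At 6 h 3 of 9 macrophage probe sets and 2 of 6 neutrophil probe sets were called higher, and 3 of 9 stellate cell probe sets and 1 of 4 cholangiocyte probe sets lower. At 12 h 2 macrophage probe sets were called higher and 2 lower, 1 neutrophil probe set higher, and 2 stellate cell probe sets lower and 1 (Col1a1) higher. At 24 and 48 h no macrophage or neutrophil probe set was called, and 3 and 2 stellate cell probe sets were called lower. Genes of other tissues, which liver should lack, were called as well, with 2, 2, 2 and 3 of 18 probe sets higher and 1, 2, 2 and 2 lower at the 4 times. Among them Prm2 161229_at, a sperm protamine, differed by 0.78 to 1.26, and Ins2 161849_r_at, an insulin, by -1.58 to -1.07. The stellate cell list averaged 3.89 to 4.26 on the treated WT arrays and 4.23 to 4.34 on the untreated ones, with 4 of its 9 probe sets too dim to judge. The neutrophil list averaged 3.11 to 3.48 on the treated WT arrays and 2.93 to 3.23 on the untreated ones, with 5 of its 6 too dim, S100a8 and S100a9 among them. The macrophage list averaged 3.95 to 4.31 on the treated WT arrays and 4.04 to 4.08 on the untreated ones, with 3 of its 9 too dim, which were that of Marco and 1 of 2 each of Cd68 and Adgre1. The part of other cells in the members' differences was not tested.

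In Aag liver 0 of the 13 probe sets were called at 6, 12, 24 or 48 h, where 0.314%, 0.129%, 0.499% and 0.233% of all probe sets were called by limma. Counts by unadjusted p, here and below, stand without the share of all probe sets at that threshold and are not read as a result. At an unadjusted p under 0.05 the members numbered 3, 1, 3 and 3. The nearest was Ung 162227_r_at at 6 h, with a difference of -0.88 (SE 0.24, 95% interval -1.36 to -0.39, adjusted p = 0.0949). At 12 h it was -0.89 (SE 0.27, adjusted p = 0.202) and at 24 h -0.76 (SE 0.22, adjusted p = 0.112). Lig1 162004_i_at was higher by 0.56 at 48 h (SE 0.15, adjusted p = 0.105), and its 3 treated arrays lay above all 4 untreated ones. These values did not pass the test, and a miss does not show that the genes stayed level.

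Set only against the 2 untreated Aag arrays outside the higher array set, the Aag differences of Ung 162227_r_at were -0.50, -0.52, -0.39 and -0.02 at 6, 12, 24 and 48 h (SE 0.20 to 0.23). Those of Parp1 were -0.42, -0.34, -0.50 and -0.33 (SE 0.16 to 0.18), below 0 at each time. Those of Lig1 162004_i_at were 0.08, -0.02, 0.13 and 0.36. No member was called in this comparison, whose lowest adjusted p for the 3 probe sets was 0.167, for Parp1 at 24 h.

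Between the genotypes before treatment 2 of the 13 probe sets were called, where 9.36% of all probe sets were called. One was the dim Mpg, given above. The other was Ung 102792_at, 0.45 higher in untreated Aag than in untreated WT liver (SE 0.14, limma adjusted p = 0.0488), a call lost in 23 of the 28 fits that leave out 1 array. Ung 162227_r_at differed by -0.72 (SE 0.24, adjusted p = 0.0584) and did not pass the test. Parp1 and Xrcc1 161560_f_at had differences of -0.45 (SE 0.17, adjusted p = 0.0984) and -0.54 (SE 0.21, adjusted p = 0.108). Once the array set entered the fit, neither Mpg, at -0.41 (adjusted p = 0.0727), nor Ung 102792_at, at 0.34 (adjusted p = 0.26), was called.

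After MMS no member passed the test between the genotypes. At 6, 12, 24 and 48 h 0 of 13 probe sets were called between Aag and WT liver, beside 0.0483%, 0.00805%, 0% and 0% of all probe sets, and 0, 0, 1 and 2 members had an unadjusted p under 0.05. Averaged over the 4 times after MMS 0 of 13 were called, beside 0.0725% of all. Outside Mpg the differences ran from -0.15 for Xrcc1 99938_at to 0.14 for Lig1 162004_i_at, and the 95% intervals of those 12 probe sets lay within -0.47 and 0.32. For Parp1 the difference was -0.05 (95% interval -0.26 to 0.15) and for Apex1 0.03 (-0.23 to 0.28). All 21 treated arrays lie outside the higher array set.

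**Figure D5:**
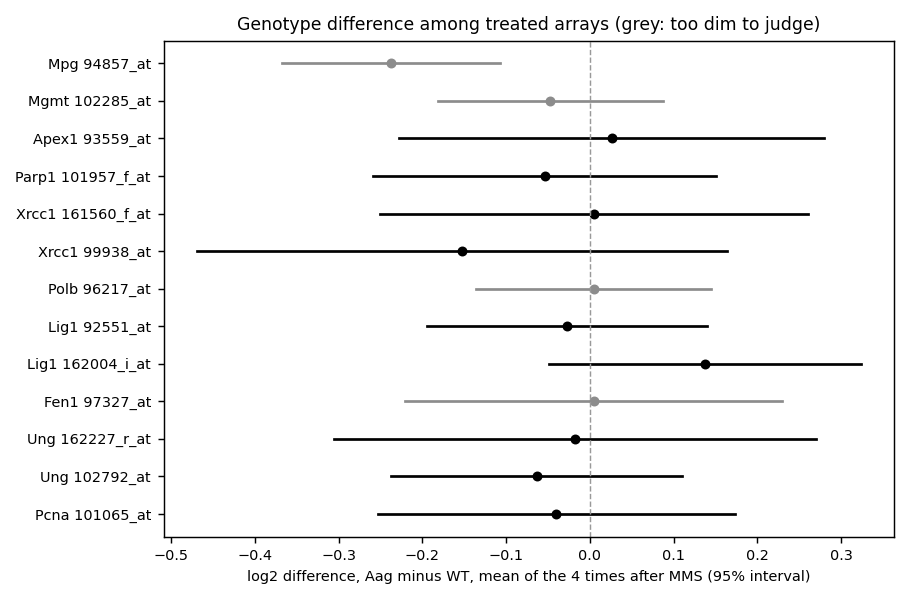
Log2 difference, Aag minus WT, over the 4 times after MMS for each of the 13 probe sets, with 95% intervals from the limma fit; grey marks the 4 too dim to judge. All intervals but that of Mpg include 0.

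The test of whether the response to MMS itself differed between the genotypes called 0 of the 13 probe sets at 6, 12, 24 and 48 h, beside 0.7%, 0.572%, 0.564% and 1.8% of all probe sets, and 1, 0, 3 and 2 members had an unadjusted p under 0.05. The response of Ung 162227_r_at was 1.00 higher in Aag than in WT liver at 48 h (SE 0.37, adjusted p = 0.166), and for Ung 102792_at at 6 h the difference between the responses was -0.72 (SE 0.22, adjusted p = 0.144). That of Xrcc1 161560_f_at was 0.75 higher at 24 h (SE 0.32, adjusted p = 0.31). The calls in WT liver and the absence of calls in Aag liver are therefore not shown to differ.

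Later times were also set against earlier ones within each genotype, as the mean of 24 and 48 h minus the mean of 6 and 12 h. None of the 13 probe sets was called in Aag liver, beside 0.121% of all probe sets, or in WT liver, beside 0.33%, and 1 and 0 of them had an unadjusted p under 0.05. In Aag liver Ung 162227_r_at differed by 0.31 (95% interval -0.07 to 0.69) and Lig1 162004_i_at by 0.22 (-0.03 to 0.46). In WT liver the differences of the members outside Mpg ran from -0.21 to 0.15.

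The levels of the other bright members were most like those of genes outside the pathway. Over the 28 arrays, and out of 6468 probe sets, Apex1 was most like Arl1 (r = 0.87) and Psmc2 (r = 0.86), Parp1 most like Blk (r = 0.89), Xrcc1 161560_f_at most like Polrmt (r = 0.95), Lig1 92551_at most like Ndufa12 (r = 0.89) and Pcna most like Gabpa (r = 0.80). Among the members themselves Parp1 had r = 0.82 with Ung 162227_r_at and 0.75 with Xrcc1 161560_f_at, and r = -0.79 with Ung 102792_at. These correlations describe arrays that share treatment groups, array sets and the pair of first 6 h arrays.

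Genes that work beside the members were counted from lists written from general knowledge. Their calls in WT liver stand beside 16.8%, 21.7%, 15.1% and 17.6% of all probe sets at 6, 12, 24 and 48 h. Of the other DNA glycosylases 4 genes were on the array with 4 probe sets, and only the dim Mutyh, which removes adenine opposite oxidized guanine, was called, at -0.42 in WT liver at 6 and at 12 h (limma adjusted p = 0.0228 and 0.00914). Its 6 h call was lost without WT 6 h replicate 1 or untreated WT replicate 2. Of the genes of end processing, break sensing and ligation 6 were on the array with 7 probe sets. Of these Parp2, a relative of Parp1, rose by 0.73 in WT liver at 6 h (SE 0.24, adjusted p = 0.0363), and none was called at another time or in Aag liver. Without WT 6 h replicate 1 the Parp2 difference was 0.34 (adjusted p = 0.4), and its call was also lost without untreated WT replicate 2 or 3 and with a term for the array set (1.01, adjusted p = 0.153). The dioxygenases that remove methyl groups from bases had no probe set under the symbols searched.

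The replicative polymerase and clamp loader list had 13 genes and 16 probe sets. Of these probe sets 1, 0, 0 and 0 were called higher and 2, 3, 1 and 2 lower in WT liver at 6, 12, 24 and 48 h. Among all probe sets 7.42%, 10.6%, 6.44% and 7.72% were called higher and 9.42%, 11.2%, 8.67% and 9.92% lower. Pold3, a subunit of polymerase delta, rose by 0.58 at 6 h (SE 0.17, limma adjusted p = 0.0206). Without WT 6 h replicate 1 it was 0.34 (adjusted p = 0.231), and the call was also lost without untreated WT replicate 1. Rpa1 and Rpa2 belong to the complex that coats single-stranded DNA, and Rpa1 fell by 0.61 at 12 h (SE 0.17, adjusted p = 0.0113), a call lost without WT 12 h replicate 1. Rpa2 98943_at had the largest differences of the list, which in WT liver were -1.81, -2.15, -2.25 and -2.30 at the 4 times (SE 0.22 to 0.25, adjusted p at most 7.15e-05). With a term for the array set it was -1.13 at 6 h (adjusted p = 0.0731), -1.47 at 12 h (adjusted p = 0.00843), -1.57 at 24 h (adjusted p = 0.00743) and -1.62 at 48 h (adjusted p = 0.00572), so that 3 of its 4 calls held.

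Rpa2 was also called in Aag liver, with differences of -1.10 at 6 h (SE 0.21, limma adjusted p = 0.024), -1.19 at 12 h (SE 0.23, adjusted p = 0.036) and -1.02 at 24 h (SE 0.19, adjusted p = 0.0156). Against the 2 untreated Aag arrays outside the higher set the differences were -0.76, -0.85 and -0.68, with adjusted p of 0.158, 0.154 and 0.134. Each of the 3 calls was also lost without untreated Aag replicate 3 or 4, among other arrays. Its level in untreated liver averaged 4.90 ± 0.49 in Aag liver (SD, n = 4), against 6.00 ± 0.29 in WT liver (SD, n = 3).

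Of the 19 probe sets of proliferation genes, from 14 genes, 1, 2, 3 and 2 were called higher and 1, 3, 2 and 2 lower in WT liver at 6, 12, 24 and 48 h, beside the 16.8%, 21.7%, 15.1% and 17.6% of all probe sets. The bright members of these were Mcm3 160496_s_at, part of the replicative helicase, which fell at each time, with differences of -0.67, -0.64, -0.81 and -0.83 (limma adjusted p at most 0.00592), and Mcm2, which fell by 0.57 at 12 h (SE 0.20, adjusted p = 0.0403). The Mcm2 difference was -0.35 without untreated WT replicate 1 (adjusted p = 0.234), and the call was also lost without untreated WT replicate 3 or any WT 12 h array. The rises were on the dim probe sets of Mcm6, Mki67 and Birc5. These WT differences all start from untreated arrays of the higher array set. Array set and treatment cannot be told apart in them. In Aag liver only Tk1, a thymidine kinase of dividing cells, was called, 0.69 higher at 24 h (SE 0.16, adjusted p = 0.0473), a call lost when any of the 4 Aag 24 h arrays, among others, was left out.

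Among 9 targets of p53 with 10 probe sets, Zmat3 fell in WT liver, with differences of -0.49, -0.50 and -0.53 at 12, 24 and 48 h (limma adjusted p = 0.0124, 0.0275 and 0.0169), and Sesn1, a stress-response gene, rose by 0.90 at 24 h (SE 0.28, adjusted p = 0.0301). The 24 h calls of both genes were lost without untreated WT replicate 2 or either WT 24 h array, and the 48 h call of Zmat3 without untreated WT replicate 2 or WT 48 h replicate 1, where it was -0.34 (adjusted p = 0.256). Zmat3 was also called lower in untreated Aag than in untreated WT liver, with a difference of -0.46 (SE 0.13, adjusted p = 0.0243), a call lost without untreated Aag replicate 1 or untreated WT replicate 2. No p53 target was called after MMS in Aag liver. The list medians in WT liver were 0.11, 0.08, 0.10 and 0.10 at the 4 times, beside 0.01, 0.03, 0.02 and 0.02 over all probe sets. In Aag liver they were 0.05, 0.03, 0.09 and 0.07, beside 0.002, 0.01, 0.01 and 0.01. Between untreated Aag and untreated WT liver, with no MMS, the list median was 0.08, beside 0.01. That comparison shares its untreated WT arrays, all in the higher array set, with the WT differences. The cause of these shifts was not tested. With a term for the array set none of these Zmat3 and Sesn1 calls held, with adjusted p of 0.187 to 0.387.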

How the data were processed

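The authors deposited one log2 signal for each probe set on each array. No label names the scale, and log2 was inferred from a range of 0.69 to 13.2. RNA was extracted with RNeasy and labelled as biotinylated cRNA, per the labels' protocols. How images were read, background was handled and probes were summarized is not stated in the sources at hand. A log2 signal shows an RNA's level on its own probes only, so levels of different genes are not compared in amount.

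Control probe sets, 66 of 12488, were removed. Quantile normalization was applied to the remaining 12422, since array medians spanned 0.22. A single gene symbol was given in the array annotation for 10833 of them, several for 396 and none for 1193. One model with 1 mean per group over all 28 arrays was fitted with limma 3.58.1 in R 4.3.3 (lmFit and eBayes with a mean-variance trend, 18 residual degrees of freedom). Values were called where the Benjamini-Hochberg adjusted p over all probe sets of a comparison was under 0.05, in 20 comparisons. The fit was checked on simulated data. The number of arrays in a group, 2 to 4, limits the precision. Promoter windows were searched on both strands. Plots were made in matplotlib 3.10.9 under Python 3.11.15.

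The named genes were all probe sets of the 10 repair genes, whatever their values, the called genes of the companion lists, and the 3 probe sets most like each bright member. The members and lists were chosen with earlier results of these data known. The alternatives were no scaling, median centring, a brightness filter, the brightest probe set per gene, a replicate block, array weights, no mean-variance trend, the array set as a term, leaving out the higher array set or the female-typical arrays, a fit on the compared groups alone, and leaving out each array in turn. Leaving out the first 6 h arrays of both genotypes together was added after seeing the data.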

Additional observations from a re-analysis of the deposited data

Results flagged for a closer look

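Rpa2 98943_at, a subunit of the complex that coats single-stranded DNA and no member of the 10 genes, had a response to MMS that differed between the genotypes by a test of the difference itself, which no member did. At 48 h its response was 1.52 higher in Aag than in WT liver (SE 0.32, limma adjusted p = 0.0143). Much of this lay in the untreated arrays, where Aag minus WT was -1.10 (SE 0.21, limma adjusted p = 0.00176). Between the genotypes at 48 h itself Rpa2 was not called, nor was any other probe set. Its level averaged 4.12 ± 0.05 in Aag liver at 48 h (SD, n = 3), against 4.90 ± 0.49 in untreated Aag liver (SD, n = 4). In WT liver it averaged 3.70 at 48 h, against 6.00 ± 0.29 in untreated WT liver (SD, n = 3). With the array set as a term the difference was 1.18 (SE 0.30, adjusted p = 0.0415). Without WT 48 h replicate 1 it was 1.52 with an adjusted p of 0.0963, and in a fit on the compared groups alone the adjusted p was 0.109. The same test called 2 markers. The response of the hepatocyte gene Ttr 95350_at at 6 h was 0.72 higher in Aag than in WT liver (SE 0.16, adjusted p = 0.0272), 0.76 with a term for the array set (adjusted p = 0.0268), and was lost without Aag 6 h replicate 3 or WT 6 h replicate 2. For Prm2 161229_at, a sperm gene whose probe set is too dim to judge, the differences between the responses were -1.18, -1.10 and -0.997 at 6, 12 and 48 h (adjusted p = 0.016, 0.0274 and 0.0289). With a term for the array set none of the Prm2 differences was called (adjusted p of 0.0596 to 0.0943). In fits on the compared groups alone neither gene was called. No array of the untreated Aag or 24 h Aag group of 4 stood apart from the rest for any of the 13 member probe sets by Dixon's test.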

How the results depend on the processing

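No called member value changed its sign under any alternative run. Among the called values of the other lists 1 did, Col1a1 103709_at in WT liver at 12 h, at 0.40 without and -0.060 with a term for the array set (adjusted p = 0.926). The number of the 13 probe sets called in WT liver was 5, 5, 4 and 5 at 6, 12, 24 and 48 h. Once array set entered the fit it was 0 at all 4 times, and 0 between untreated Aag and WT liver, where it was 2 without the term. With array weights it was 0 at 6 h and 1 at 48 h in WT liver, 0 between untreated genotypes, 1, 1, 2 and 2 in Aag liver at 6, 12, 24 and 48 h, and 2 between late and early Aag times. In fits on the compared groups alone it was 0, 1 and 1 in WT liver at 6, 24 and 48 h and 0 between untreated genotypes. With the brightest probe set per gene, which leaves 10 member probe sets, it was 3, 3 and 3 in WT liver at 6, 12 and 48 h and 1 between untreated genotypes. Between untreated genotypes it was 0 with the brightness filter, which removes the dim Mpg, and 1 without the female-typical arrays. Without the first 6 h array of each genotype it was 2 in WT liver at 6 h, 1 in Aag liver at 24 h, 5 between untreated genotypes and 1 between late and early WT times. Apart from the array set term in WT liver, the shares of all probe sets called in these fits are not given beside the counts. The counts describe the fits and are not read as a result about the members. The cause of these changes was not tested.

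Leaving out 1 array at a time gave 1 to 8 calls in WT liver at 6 h, 4 to 5 at 12 h, 1 to 5 at 24 h and 1 to 6 at 48 h, with the low ends without WT 6 h replicate 1, WT 24 h replicate 2 and WT 48 h replicate 2. The range was 0 to 1 in Aag liver at 6, 24 and 48 h, 0 to 4 between untreated genotypes, 0 to 1 between treated genotypes at 6 and at 48 h, and 0 to 2 and 0 to 1 for the difference between responses at 6 and 48 h. The share of all probe sets called in each of these fits is not given here. Whether the members moved more than other probe sets cannot be read from the ranges. Replicate numbers gave no sign of a general pairing. Deviations from the group mean had a median r of -0.04 (-0.73 to 0.91) between same-numbered arrays of different groups. Between differently numbered arrays the median r was 0.02 (-0.91 to 0.76). Single pairs, such as the first 6 h arrays, were nevertheless alike, so pairing in part is not excluded. The fit with replicate number as a block called 4, 5, 4 and 4 members in WT liver and 2 between untreated genotypes.

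Median centring called 734 higher and 1801 lower of all probe sets in WT liver at 6 h, 1004 and 2102 at 12 h, 688 and 1653 at 24 h, and 721 and 1930 at 48 h, against 922 and 1170, 1312 and 1389, 800 and 1077, and 959 and 1232 with quantile normalization. For untreated Aag against WT liver it was 296 and 1135 by centring and 324 and 847 as deposited, against 458 and 705. Probe sets near or below the array median, and groups of 2 arrays, limit what can be seen.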
